A study of Mus musculus with 6 samples.

Results

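The Zbtb genes of the mouse were followed in fully-grown oocytes of wild-type and Marf1-mutant females. Members were selected on the symbol, as every gene whose name starts with Zbtb and a digit, and 42 of the 19938 genes measured met this rule. For the 3 members with 2 probe sets (Zbtb2, Zbtb20 and Zbtb44) the probe set with the highest mean over all 6 arrays was used, so their rows were chosen by a measured level, and nothing is read from that level. The rule does not use the difference between genotypes, but the family was picked with earlier results of these data known. Of the 42 genes, 40 encode proteins of the family. The other 2 carry the name through their position, namely Zbtb8os, which encodes the tRNA ligase cofactor archease, and the non-coding Zbtb11os1.

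Zbtb proteins join a BTB domain at one end, through which they pair with each other and hold corepressors or the ubiquitin ligase scaffold Cul3, to C2H2 zinc fingers at the other end, through which they bind DNA. Many act as transcriptional repressors. They are best known from blood cell fate, from the reading of methylated DNA and, for Zbtb16 (PLZF), from the upkeep of spermatogonial stem cells. A fully-grown oocyte no longer transcribes its genome appreciably and lives on RNA stored during growth.

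There were 3 wild-type (Marf1+/+) and 3 mutant samples, each on 1 array, from a C57BL/6J and C3HeB/FeJ background. The mutant allele, written Marf1 ENU/ENU in the labels, was induced with the mutagen ENU and is carried on both copies. All females received 5 IU of equine chorionic gonadotropin at 21 days of age for 46 hours, and oocytes at the germinal vesicle stage were stripped of cumulus cells at day 23. The labels call the samples individual but do not say how many oocytes or females each held, and p-values therefore cover only how far these 6 samples scatter, part of which may be technical. Values are log2 expression on the RMA scale, so every difference is relative to the other transcripts of the same array, and fewer cells and less RNA per cell cannot be told apart.

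Median log2 values of the arrays ran from 4.56 to 4.76. The highest was that of mutant replicate 3, whose values also had the smallest SD (2.04, against 2.14 to 2.20 on the other arrays). Mutant replicate 3 correlated with the other mutant arrays at 0.970 to 0.973, while every other within-genotype pair lay at 0.984 to 0.985. Marf1, the mutated gene, read 9.21, 9.16 and 9.31 in wild type and 5.98, 6.40 and 6.16 in the mutant, a log2 difference of -3.05 (SE 0.15, limma adjusted p = 0.0001). Of the oocyte markers, 12 of 12 lay above the level of receptor genes in both genotypes, with Gdf9 at 11.73 and 11.65 and Bmp15 at 11.38 and 11.31 (log2 means, wild type and mutant). All 12 had a negative difference, as did 11267 of the 19938 genes. Of the 12 markers 1, Kit, was lower (-1.28, limma adjusted p = 0.00419), where 4.04% of all genes were. The receptor-gene level used here, 4.53 on the log2 scale, is the 95th percentile of 1194 olfactory and vomeronasal receptor genes and serves to describe a dim signal.

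Of the Zbtb genes, 13 rose in the mutant and none fell. Those that rose were Zbtb5, Zbtb43, Zbtb1, Zbtb34, Zbtb22, Zbtb6, Zbtb26, Zbtb9, Zbtb10, Zbtb2, Zbtb3, Zbtb46 and Zbtb17. They make up 31.0% of the 42, where 6.40% of all genes were higher in the mutant at the same threshold, a limma adjusted p under 0.05 over all 35556 probe sets. The count of falls was 0 of 42 in limma, with 4.04% of all genes lower. At an unadjusted p under 0.05 in limma 19 members were higher and 0 lower, where 11.0% and 13.5% of all genes were, and limma without variance moderation gave 7 higher and 0 lower (2.65% of all genes higher). The median log2 difference was 0.43 over the 42 genes and -0.04 over all genes, and 33 of the 42 had a difference above 0, against 43.5% of all genes. At a change of at least 2-fold there were 8 higher members, with 4.62% of all genes. Dim genes were rarer in the family, with 5 of 42 wild-type means below the receptor-gene level, against 7717 of the 19938 genes. The share over all genes therefore includes many genes with little signal. When only probe sets above the median level were fitted, 14 of 34 members were higher (41.2%), against 12.8% of all genes kept. These shares are set side by side as a description, with no test of the list.

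Mutant values lay wholly above wild-type values in 18 of the 42 genes, where this held for 12.9% of all genes. They lay wholly below in 2 (Zbtb8a and Zbtb38), where it held for 17.7%. Both of these were dim, with wild-type means of 4.59 and 4.61 and mutant means of 4.45 and 4.39, around the receptor-gene level. In the remaining 22 the genotypes overlapped. Among all genes that passed, 61.3% were higher as deposited and 74.6% after cyclic loess normalization. The members had 15 higher and 0 lower after cyclic loess (7.76% of all genes higher), 12 and 0 after quantile normalization (6.83%) and 11 and 0 after median centring (5.27%).

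**Figure D1:**
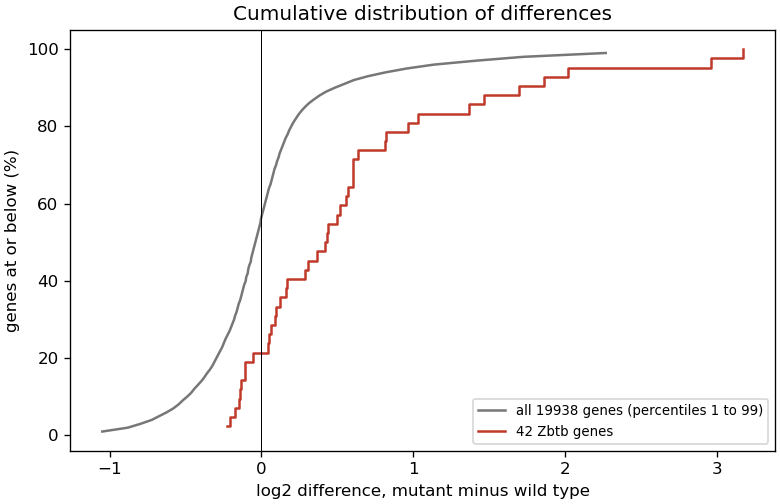
Share of genes (y axis, percent) with a log2 difference, mutant minus wild type, at or below the value on the x axis, for the 42 Zbtb genes (red steps) and for percentiles 1 to 99 of all 19938 genes (grey line). The red steps cross the middle of the y axis near the Zbtb median of 0.43, to the right of the grey line, which does so at -0.04.

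Zbtb5, a zinc-finger repressor reported to act on the cell cycle inhibitor gene Cdkn1a, had the largest log2 difference of the family. It read 4.33, 3.90 and 4.25 in wild type and 7.45, 7.45 and 7.10 in the mutant, in the order of the replicate numbers. The lowest mutant array stood 2.77 log2 units above the highest wild-type array. The difference of the means was 3.17 (SE 0.18, 9.02-fold, limma adjusted p = 0.000128). Its wild-type mean of 4.16 lay below the receptor-gene level, so the rise may be a lower bound.

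Zbtb43, studied in precursors of male germ cells for its action on Z-DNA and on new DNA methylation, moved from 4.93, 4.63 and 4.76 to 8.19, 7.91 and 7.11. The log2 difference was 2.96 (SE 0.27, 7.80-fold, adjusted p = 0.000753). All 3 mutant arrays were higher than all wild-type arrays, and mutant replicate 3 was the lowest of the mutants. Zbtb34, which lies beside Zbtb43 in the RefSeq gene order, read 6.30, 6.40 and 6.21 in wild type and 8.28, 8.37 and 7.85 in the mutant, a difference of 1.86 (SE 0.17, 3.64-fold, adjusted p = 0.000796). This neighbouring pair thus rose together, again with mutant replicate 3 lowest among the mutants.

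Zbtb1, needed for lymphocyte development, read 5.74, 5.84 and 5.46 in wild type and 7.89, 7.94 and 7.27 in the mutant (log2 difference 2.02, SE 0.21, 4.06-fold, adjusted p = 0.00151). Its neighbour Zbtb25 read 4.24, 3.96 and 4.16 in wild type and 4.96, 4.38 and 4.28 in the mutant, which did not pass (0.42, SE 0.21, adjusted p = 0.321). Here the neighbours were not called alike. However, Zbtb25 was dim, with a wild-type mean of 4.12, below the receptor-gene level, and a mutant mean of 4.54, close to it. Whether the changes of Zbtb1 and Zbtb25 differ was not tested. Zbtb22, a gene beside Daxx, read 5.06, 4.98 and 4.68 in wild type and 6.70, 6.78 and 6.33 in the mutant (1.70, SE 0.18, 3.24-fold, adjusted p = 0.00148).

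The stretches before the start sites of the 5 members with the largest rises are shown so that their composition can be seen. These genes were chosen by the size of the rise, so that all 5 rose is not a result. Each is the 250 bases before the first start site listed by RefSeq for GRCm38.p6, read 5′ to 3′ on the gene's strand. Capitals mark exact matches, on either strand, to 7 short sequences named after the lines.
Zbtb5 (chr4:45012413-45012662, minus strand): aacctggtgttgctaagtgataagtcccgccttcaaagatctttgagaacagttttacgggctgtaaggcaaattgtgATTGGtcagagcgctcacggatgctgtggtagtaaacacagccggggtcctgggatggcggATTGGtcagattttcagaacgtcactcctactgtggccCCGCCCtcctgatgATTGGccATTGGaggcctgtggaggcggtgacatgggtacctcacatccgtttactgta
Zbtb43 (chr2:33468533-33468782, minus strand): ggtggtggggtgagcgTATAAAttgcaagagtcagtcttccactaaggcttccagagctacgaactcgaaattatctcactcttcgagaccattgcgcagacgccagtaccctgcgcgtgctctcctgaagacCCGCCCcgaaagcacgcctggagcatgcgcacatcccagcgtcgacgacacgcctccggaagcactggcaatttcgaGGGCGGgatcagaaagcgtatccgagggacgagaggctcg
Zbtb1 (chr12:76370270-76370519, plus strand): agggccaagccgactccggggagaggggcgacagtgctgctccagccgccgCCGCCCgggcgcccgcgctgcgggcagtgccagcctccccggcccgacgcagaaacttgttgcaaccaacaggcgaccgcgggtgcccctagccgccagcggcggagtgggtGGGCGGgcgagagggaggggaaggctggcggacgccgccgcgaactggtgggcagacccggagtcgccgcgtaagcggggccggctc
Zbtb34 (chr2:33431325-33431574, minus strand): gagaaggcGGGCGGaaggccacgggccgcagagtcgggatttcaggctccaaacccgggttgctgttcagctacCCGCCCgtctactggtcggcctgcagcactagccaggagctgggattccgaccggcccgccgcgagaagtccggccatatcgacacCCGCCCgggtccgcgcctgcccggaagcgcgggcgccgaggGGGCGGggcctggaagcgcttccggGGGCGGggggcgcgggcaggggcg
Zbtb22 (chr17:33915926-33916175, plus strand): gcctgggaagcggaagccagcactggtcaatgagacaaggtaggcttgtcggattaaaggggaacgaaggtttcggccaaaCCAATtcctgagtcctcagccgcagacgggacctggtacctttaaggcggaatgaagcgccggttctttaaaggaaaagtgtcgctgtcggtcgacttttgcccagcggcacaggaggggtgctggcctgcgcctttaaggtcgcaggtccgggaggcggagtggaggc
Zbtb5 has 4 matches to the CCAAT box and 1 to the GC box. Zbtb43 has 2 matches to the GC box and 1 to the TATA box, Zbtb1 has 2 to the GC box, Zbtb34 has 5 to the GC box, and Zbtb22 has 1 to the CCAAT box. The TATA match of Zbtb43 lies near the 5′ end of its stretch, away from the start site. The CpG counts of the 5 stretches, in the same order, are 10, 23, 33, 32 and 17.

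A promoter was listed for 37 of the 42 members, 12 of them among the 13 that rose. The GC box (GGGCGG) was found in 9 of these 12, in 15 of the 25 other members and in 32.9% of the 27025 genes with a listed promoter. The CCAAT box (CCAAT) was found in 5 of 12, in 8 of 25 and in 34.5% of all, and the TATA box (TATAAA) in 1 of 12, in 1 of 25 and in 13.0%. The E-box (CACGTG), the cAMP response element (TGACGTCA), the ETS site (CCGGAAGT) and the Kaiso site (TCCTGCNA) were in 0 of the 12 windows. They were in 4, 1, 3 and 1 of the 25 others and in 6.05%, 1.62%, 2.93% and 4.00% of all promoters. The 250-base stretches had a median of 20.5 CpG dinucleotides in the members that rose, 20.0 in the other members and 6.0 over all genes. The 7 short sequences do not contain one another, and a match describes letters only.

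Zbtb6 and Zbtb26 form a second neighbouring pair in the RefSeq gene order in which both rose. Apart from Zbtb1 and Zbtb25, of which only Zbtb1 passed, the other adjacent members did not pass. They were Zbtb8os, Zbtb8a and Zbtb8b, with differences of -0.21, -0.14 and 0.61, and Zbtb11 and Zbtb11os1, with 0.44 and 0.29. Zbtb26 read 5.45, 5.53 and 5.45 in wild type and 7.07, 6.95 and 6.52 in the mutant (log2 difference 1.37, SE 0.17, 2.58-fold, adjusted p = 0.00309). Zbtb6 read 4.90, 4.64 and 4.63 in wild type and 6.45, 6.76 and 5.36 in the mutant (1.47, SE 0.34, 2.76-fold, adjusted p = 0.0400). The mutant arrays of Zbtb6 were widely spread (SD 0.74), with replicate 3 only 0.46 above the highest wild-type array. Leaving out 1 array gave differences from 1.18 (without mutant replicate 2, adjusted p = 0.0967) to 1.88 (without mutant replicate 3, adjusted p = 0.00153), and the call was lost in 5 of the 6 such fits.

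Zbtb10, a repressor of Sp transcription factor genes, read 9.51, 9.48 and 9.32 in wild type and 10.69, 10.40 and 10.11 in the mutant, a rise of 0.96 (SE 0.18, 1.95-fold, adjusted p = 0.0172). Zbtb9 read 5.95, 6.30 and 6.51 in wild type and 7.39, 7.20 and 7.27 in the mutant (1.03, SE 0.17, 2.05-fold, adjusted p = 0.0119). Neither gene's genotypes overlapped, and the gap between them was 0.60 for Zbtb10 and 0.69 for Zbtb9. Zbtb2, like Zbtb5 reported to repress Cdkn1a, read 6.56, 6.39 and 6.63 in wild type and 7.48, 7.23 and 7.34 in the mutant (0.82, SE 0.14, 1.77-fold, adjusted p = 0.0134). Its other probe set read 6.22, 5.46 and 5.97 in wild type and 6.70, 6.38 and 6.17 in the mutant, overlapped between genotypes and did not pass (0.53, SE 0.23, adjusted p = 0.255).

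The last 3 members past the threshold changed less. Zbtb3 read 4.90, 5.61 and 5.19 in wild type and 6.07, 6.05 and 6.02 in the mutant (0.81, SE 0.19, adjusted p = 0.0448). Here the wild-type arrays carried nearly all of the spread. Zbtb46, a transcription factor of classical dendritic cells, read 6.21, 6.32 and 6.08 in wild type and 6.64, 6.95 and 6.92 in the mutant (0.63, SE 0.15, adjusted p = 0.0447). Zbtb17, the Myc partner Miz1, read 5.12, 5.31 and 5.31 in wild type and 5.81, 5.76 and 5.99 in the mutant (0.61, SE 0.14, adjusted p = 0.0405). The gap between genotypes was 0.41, 0.32 and 0.45 for these 3 genes.

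**Figure D2:**
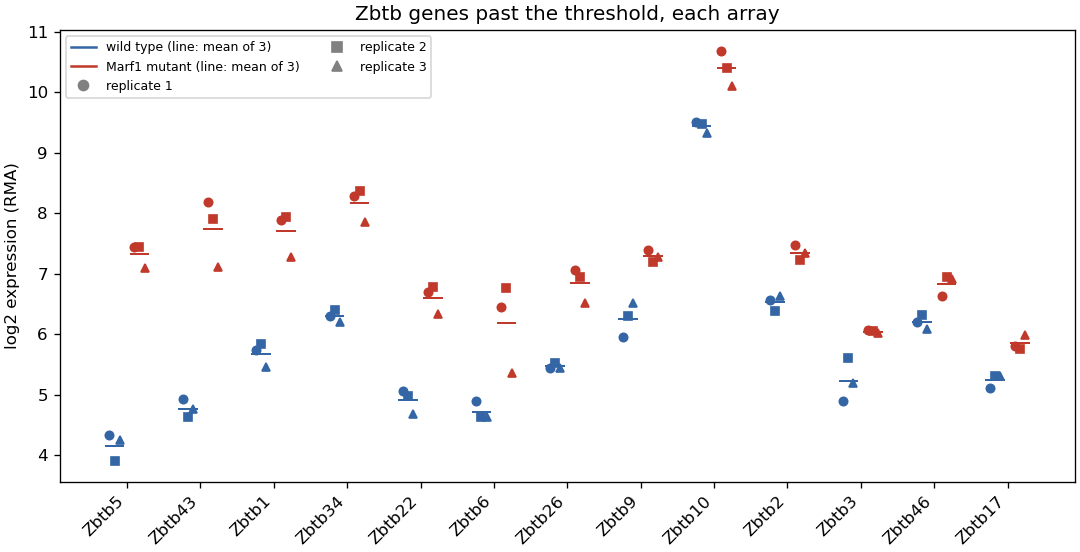
Log2 expression (y axis, RMA scale) of the 13 Zbtb genes past the threshold on each of the 6 arrays, with wild type in blue, mutant in red, symbols for replicate numbers and a line at each mean of 3. No gene's red and blue points overlap, the gap runs from 0.32 for Zbtb46 to 2.77 for Zbtb5, and mutant replicate 3 (red triangles) is lowest of its genotype in 9 of the 13.

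Mutant replicate 3, the array that correlated least with the rest of its genotype, was the lowest mutant in 9 of the 13 genes, and wild-type replicate 3 the lowest wild type in 7. How often either held over all genes was not counted, so this is not read as a trait of the family. Leaving out mutant replicate 3 gave 11 higher members (26.2%, with 7.14% of all genes higher), 10 of them among the 13 and the other Zbtb33. Leaving out wild-type replicates 1, 2 or 3 gave 7, 8 and 8 higher members, where 4.28%, 4.50% and 4.14% of all genes were higher. Leaving out mutant replicates 1 or 2 gave 7 and 8, where 4.34% and 4.49% of all genes were. Zbtb5, Zbtb43, Zbtb1, Zbtb34, Zbtb22, Zbtb26 and Zbtb9 passed in each of the 6 fits without 1 array. Zbtb46 and Zbtb17 passed in none of them, Zbtb6, Zbtb10 and Zbtb3 in 1, and Zbtb2 in 3.

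**Figure D3:**
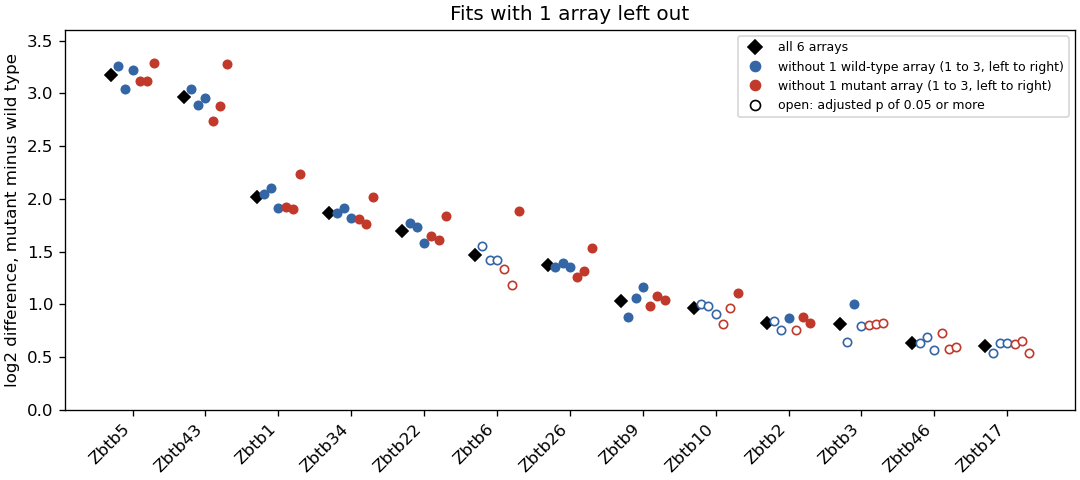
Log2 difference, mutant minus wild type (y axis), of the 13 Zbtb genes with all 6 arrays (black diamonds) and with 1 wild-type (blue) or 1 mutant array (red) left out, filled where the limma adjusted p was under 0.05. All 7 fits of Zbtb5 are filled and lie between 3.04 and 3.29, whereas only the fit with all arrays is filled for Zbtb46 and Zbtb17.

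Of the 29 members that did not pass, 6 had an unadjusted limma p under 0.05, each with a positive difference. Zbtb8b had a log2 difference of 0.61 (SE 0.19, adjusted p = 0.120) and Zbtb7a, the repressor of fetal globin genes also called LRF, of 0.60 (SE 0.21, adjusted p = 0.156). Zbtb41 had 0.57 (SE 0.22, adjusted p = 0.194), Zbtb44 0.50 (SE 0.14, adjusted p = 0.0849), Zbtb11 0.44 (SE 0.15, adjusted p = 0.151) and Zbtb21 0.43 (SE 0.16, adjusted p = 0.177). In Zbtb8b, Zbtb44, Zbtb11 and Zbtb21 all mutant arrays lay above all wild-type arrays, and in Zbtb7a and Zbtb41 they overlapped. Zbtb44, at 8.72, 8.46 and 8.61 in wild type and 9.11, 9.20 and 8.97 in the mutant, had the lowest adjusted p of the members outside the threshold. Its second probe set read between 3.96 and 4.26 in wild type and between 4.15 and 4.88 in the mutant.

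The other 23 members had differences between -0.23 and 0.56, with a median of 0.06. The genotypes overlapped in 20 of them. Among them 9 had a negative difference, the largest being that of Zbtb38 (-0.23, SE 0.14, adjusted p = 0.447), and Zbtb8os, the member that is no zinc-finger gene, had -0.21 (SE 0.28, adjusted p = 0.790). Zbtb11os1 had 0.29 (SE 0.19, adjusted p = 0.494). Both probe sets of Zbtb20, the repressor of the alpha-fetoprotein gene, gave small differences, of 0.05 (SE 0.13) and -0.12 (SE 0.23).

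**Figure D4:**
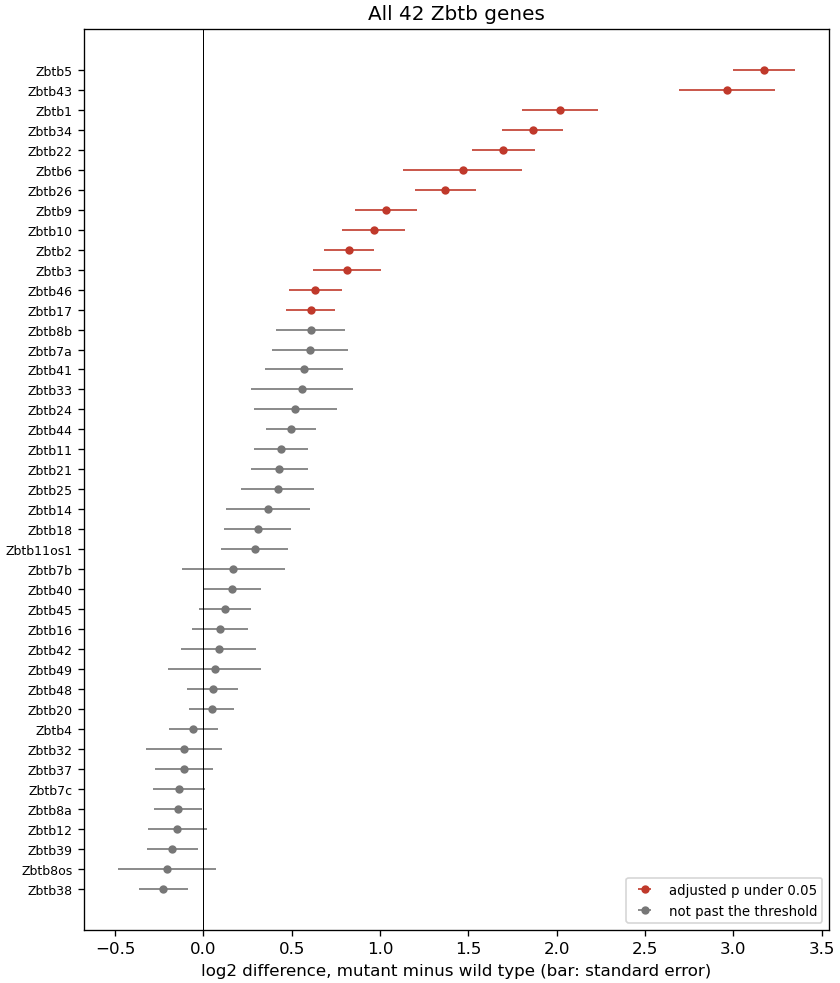
Log2 difference, mutant minus wild type (x axis), of all 42 Zbtb genes in order of size, with the standard error as a bar and the 13 genes past the threshold in red. The values run from -0.23 for Zbtb38 to 3.17 for Zbtb5, and no gene on the negative side is red.

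By known role, the 3 members that bind methylated DNA did not pass, where 6.40% of all genes were higher and 4.04% lower. Zbtb33 (Kaiso) read 7.27, 7.42 and 7.51 in wild type and 8.19, 8.42 and 7.26 in the mutant (0.56, SE 0.29, adjusted p = 0.355), so mutant replicates 1 and 2 lay above wild type and replicate 3 below it. The differences of Zbtb4 and Zbtb38 were -0.06 and -0.23. Both were dim, so a fall could hardly have been seen. Zbtb4 had means of 4.50 in wild type and 4.44 in the mutant, below the receptor-gene level. Zbtb38 had 4.61 and 4.39, just above and below it. Of 3 members tied to DNA methylation or germline chromatin, Zbtb43 rose, Zbtb24, mutated in the ICF immunodeficiency syndrome, had 0.52 (SE 0.24, adjusted p = 0.281), and Zbtb16 had 0.09 (SE 0.16, adjusted p = 0.838). Zbtb16 lay below the receptor-gene level in both genotypes, with arrays between 4.07 and 4.52.

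Among 7 members known from lymphoid and blood cell fate, 3 rose (Zbtb1, Zbtb46 and Zbtb17) and 0 fell, where 6.40% of all genes were higher and 4.04% lower. Zbtb46 and Zbtb17 passed in 0 of the 6 fits without 1 array. The lymphoid regulators Zbtb7b (ThPOK) and Zbtb32 had 0.17 (SE 0.29) and -0.11 (SE 0.22). Of 5 members tied to telomeres, genome stability or the cell cycle 3 rose (Zbtb5, Zbtb10 and Zbtb2), against the same 6.40%, and Zbtb10 passed in 1 and Zbtb2 in 3 of those 6 fits. The telomere-binding Zbtb48 (TZAP) had 0.05 (SE 0.14) and Zbtb40 0.16 (SE 0.16). None of 6 members known from the development of other tissues passed (0 of 6), and their differences ran from -0.14 for Zbtb7c to 0.37 for Zbtb14. The role groups do not cover all members. Zbtb34, Zbtb22, Zbtb6, Zbtb26, Zbtb9 and Zbtb3, which rose, are in none of them.

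Relatives and partners of the family were read against the 10.4% of all genes that changed in either direction. Of 12 BTB zinc-finger genes and BTB relatives with other names, 2 rose and 0 fell (3 higher and 2 lower at an unadjusted limma p under 0.05). Bach1, a heme-binding repressor of the BTB and leucine zipper kind, read 6.02, 6.16 and 6.31 in wild type and 8.23, 7.88 and 7.53 in the mutant (1.72, SE 0.20, adjusted p = 0.00219). Zfp131 read 6.91, 6.92 and 6.65 in wild type and 8.43, 8.59 and 8.17 in the mutant (1.57, SE 0.16, adjusted p = 0.00142). Bcl6, the germinal-centre repressor, had -0.60 (SE 0.26, adjusted p = 0.249), and the list's median was -0.06.

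Of 30 measured corepressor subunits, histone deacetylases and Cul3 ligase genes, 2 rose and 2 fell. Mta2, a subunit of the NuRD deacetylase complex, read 4.69, 4.59 and 4.62 in wild type and 7.82, 7.81 and 7.42 in the mutant (3.05, SE 0.16, adjusted p = 0.000104). The deacetylase Hdac4 rose by 0.62 (SE 0.14, adjusted p = 0.0332). Chd4, the remodelling ATPase of NuRD, fell by 0.62 (SE 0.14, adjusted p = 0.0353) and the scaffold Sin3b fell by 0.69 (SE 0.14, adjusted p = 0.0229). Only Mta2 held in each fit without 1 array, the count being 1 without each of wild-type replicates 1 to 3 and mutant replicates 1 and 2. Cul3 itself had 0.50 (SE 0.17, adjusted p = 0.144), and the list's median was -0.12.

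Of 14 methylated-DNA readers, DNA methyltransferases and ICF genes 1 rose and 0 fell. Uhrf2 rose from 4.31 to 8.71 (4.40, SE 0.18, adjusted p = 5.6e-05), from a wild-type mean below the receptor-gene level. Dnmt1, the maintenance methyltransferase, had -0.51 (SE 0.13, adjusted p = 0.0659). Of 17 genes linked in other cells to a Zbtb protein 16 were measured, of which 2 rose and 1 fell. The gene not measured was Cdkn1a, named above for Zbtb5 and Zbtb2, so its level was not read. Cdkn2b, a cell cycle inhibitor gene that Zbtb17 binds, read 4.74, 4.99 and 5.03 in wild type and 7.01, 6.94 and 6.90 in the mutant (2.03, SE 0.14, adjusted p = 0.000247). Id2, an inhibitor of basic helix-loop-helix factors, read 5.22, 5.11 and 4.63 in wild type and 8.25, 8.11 and 7.80 in the mutant (3.07, SE 0.20, adjusted p = 0.000216). Kit, which Zbtb16 represses in spermatogonia, changed from 9.18 to 7.90 (-1.28, SE 0.17, adjusted p = 0.00419), and Cdca7, a gene that Zbtb24 activates, had 0.99 (SE 0.28, adjusted p = 0.0820). The median over these 16 genes was 0.01.

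Markers of other ovarian cells were read beside the rises of the family, against 6.40% of all genes higher and 4.04% lower. Of 14 cumulus and granulosa markers 2 were higher, Kitl (1.94, SE 0.18, adjusted p = 0.000731) and Nr5a2 (1.46, SE 0.17, adjusted p = 0.00251), and 0 were lower. Kitl had a wild-type mean of 3.72, below the receptor-gene level, so its rise may be a lower bound. The summed level of the list, as log2 of the sum on the linear scale, was 9.48 to 9.59 in wild type and 10.43 to 10.76 in the mutant. Without Kitl and Nr5a2, the 2 markers called higher in these same data, it was 8.14 to 8.40 and 8.10 to 8.39. Leaving out the markers that rose takes the rise out of the sum, so no conclusion is drawn from this second sum. Of the 14 markers 5 lay below the receptor-gene level in both genotypes, among them the defining genes Fshr, at 4.04 and 4.24, and Amh, at 4.42 and 4.07 (wild type and mutant). Others lay above it in both, such as Gja1 at 5.59 and 5.65, Foxl2 at 5.14 and 5.08 and Inhbb at 5.11 and 4.94. Of 11 theca and stroma markers Pdgfra was higher (0.67, SE 0.14, adjusted p = 0.0299, from a wild-type mean of 4.22, below that level, and past the threshold in 0 of the 6 fits without 1 array), with summed levels of 7.78 to 7.92 and 7.76 to 8.02. Of 10 blood, immune and endothelial markers Pecam1 was lower (-1.07, SE 0.19, adjusted p = 0.0144, and past it in 4 of those 6 fits), with summed levels of 8.47 to 8.56 and 8.03 to 8.22. The part of these markers in the Zbtb rises was not tested.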

How the data were processed

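RNA of 3 wild-type and 3 Marf1-mutant oocyte samples was measured, 1 array each. Per the submitters' processing notes the authors used GCOS, Affymetrix Expression Console 1.1 and RMA, and what they deposited is a log2 value for each probe set, with background correction and normalization between arrays already applied. Which genome build the array was designed on is not given here. The platform annotation named 1 gene for 21789 of 35556 probe sets, several for 1621 and none for 12146, and a gene with several probe sets was read from the one with the highest mean. Groups came from the sample titles.

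The test was limma's moderated one (version 3.58.1 under R 4.3.3), two-sided, with genotype as the only term, over all probe sets, with Benjamini-Hochberg adjustment and a threshold of 0.05. The fit was also run on simulated arrays with independent noise and known shifts. That check required only that the median estimate lay near each shift, so it does not bear on the calls made here. Precision is limited by 3 arrays per genotype. Every member past the threshold, or with an unadjusted p under 0.05, was named, as were the members with the 4 highest means and list genes past the threshold (at most 6 per list). The members, the gene lists and the role groups were chosen with earlier results of these data known. Promoter stretches are from RefSeq, matched by symbol, and gene order from its GRCm38.p6 annotation, of which no other coordinates are used. Alternatives were other normalizations, filters, variance models and probe set choices, the replicate number as a block, and leaving out each array.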

Additional observations from a re-analysis of the deposited data

How the results depend on the processing

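Of the 622 log2 differences of the 42 Zbtb genes under the alternatives 13 changed sign, all in members that did not pass. After quantile normalization Zbtb49 had -0.011 and Zbtb48 -0.014, after cyclic loess Zbtb37 had 0.050, and the lower probe set of Zbtb20 had -0.12. Leaving out 1 array gave -0.058 to 0.47 for Zbtb7b, -0.012 to 0.21 for Zbtb16, -0.11 to 0.29 for Zbtb42, -0.16 to 0.34 for Zbtb49, -0.0033 to 0.15 for Zbtb48 and -0.36 to 0.018 for Zbtb32. Members outside the 13 that rose (Zbtb8b, Zbtb33, Zbtb44 and Zbtb11) passed in 7 of the 622. Of the members that rose, 6 of 13 (Zbtb5, Zbtb43, Zbtb1, Zbtb34, Zbtb22 and Zbtb26) passed under each of the 9 other settings and 6 fits without 1 array. The count of falling members was 0 under each of them. Without variance moderation 7 members were higher (528 of all genes, 2.65%), 932 probe sets changed (2765 as deposited), and the BTB relatives had 1 and the corepressor list 2. Leaving out 1 array gave 7 to 11 higher members, 1368 to 2804 probe sets and 1 to 6 corepressor genes. The corepressor count, 4 as deposited, was 2 after median centring and 7 both when dim rows were dropped and when each gene had 1 row. The methylated-DNA and ICF list, 1 as deposited, gave 3 in both of those settings and 2 with a variance trend. The lower probe set of each gene gave 12 higher members, without Zbtb2, whose other probe set did not pass. The cause of these shifts was not tested. Marf1 stayed between -3.16 and -2.89.

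The replicate numbers of the titles are shared by both genotypes. Deviations of same-numbered arrays correlated at 0.147, -0.0992 and 0.0267, so the numbers were not taken to pair the samples. With the replicate number as a block, 10 members were higher (without Zbtb3, Zbtb46 and Zbtb17; 5.26% of all genes higher), 1946 probe sets changed, and the corepressor list had 1.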

Other observations

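Genes beside the Zbtb members in the RefSeq gene order, taken as the nearest measured gene on each side and leaving out those that are members, were read after the values were seen. Of 21 such neighbours of the 13 members that rose, 5 were higher and 1 lower by limma, where 6.40% of all genes were higher and 4.04% lower. Rc3h2, an RNA-binding protein of the Roquin family beside Zbtb6, went from 5.61 to 8.09 (log2 difference 2.47, SE 0.20, adjusted p = 0.000465). Rabgap1, beside Zbtb26, went from 8.02 to 9.47 (1.45, SE 0.20, adjusted p = 0.00499), so the 2 Zbtb genes and the measured gene on either side of them were all higher. Armt1, beside Zbtb2, went from 4.08 to 6.51 (2.43, SE 0.23, adjusted p = 0.000822), while Akap12 on the other side changed from 7.86 to 6.93 (-0.93, SE 0.20, adjusted p = 0.0335). Zgpat, beside Zbtb46, had 0.88 (adjusted p = 0.0312, wild-type mean 4.51) and the corepressor gene Spen, beside Zbtb17, 0.76 (adjusted p = 0.0323). The neighbours of Zbtb5, Zbtb9, Zbtb10, Zbtb22 and Zbtb3 did not pass, nor did Hspa2 beside Zbtb1, nor did Garnl3 and Lmx1b, which flank the pair of Zbtb34 and Zbtb43. Armt1 and Zgpat had wild-type means under 4.53, the dim level taken from receptor genes, and their rises may be lower bounds. Of 51 neighbours of the other members 3 were higher and 2 lower.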
